A study of Homo sapiens with 4 samples.

Results

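The 52 genes described here encode the machinery that copies chromosomal DNA and the enzymes that supply its building blocks. They comprise the MCM helicase, the origin recognition complex, the factors that license and fire origins, the replicative polymerases with primase, the clamp loader, the single-strand binding protein, enzymes of the lagging strand, fork protection proteins and 5 enzymes of nucleotide supply. They were taken by gene symbol from a deposited expression table of 18375 genes, and all 52 were found in it. The table comes from RD cells, an established human line of fusion-negative rhabdomyosarcoma, a tumour with features of skeletal muscle. The 2 vincristine-resistant libraries came from RD cells labelled WT for genotype that had been selected with vincristine, a plant alkaloid that blocks microtubule assembly. Selection began at 1 to 1.5 nM, a dose under which about 80 to 90% of the cells died, and went on in steps of 10 to 20% for 9 to 12 months. By then the half-maximal inhibitory concentration was at least 100-fold higher. The 2 parental libraries came from untreated RD cells, also labelled WT. The labels do not say whether the resistant line is a clone or a pool, whether drug was present at harvest, or whether the libraries of a group came from separate cultures. The p-values therefore cover only how far these libraries scatter, and that scatter may be technical.

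Replication is prepared in G1, when the origin recognition complex (ORC) marks origins and, with CDC6 and CDT1, loads the ring-shaped MCM helicase onto DNA, a step called licensing. Geminin (GMNN) then blocks CDT1, so that origins are not licensed again in the same cycle. In S phase the kinase made of CDC7 and DBF4, together with CDC45 and the GINS complex, turns the loaded ring into an active helicase. Polymerase alpha and primase lay down primers, and polymerases epsilon and delta extend the leading and lagging strands. Many of these genes are known targets of the E2F transcription factors and are transcribed around the G1/S transition.

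Most replication genes had higher transcript levels in resistant than in parental cells, and most of the differences were smaller than 2-fold. The 52 genes together took 0.643 and 0.638% of the reads in the resistant libraries, against 0.528 and 0.530% in the parental libraries. Values are normalized counts, which are reads per gene divided by a size factor of the library. They were compared as log2(normalized count + 1) with limma, adjusted by Benjamini-Hochberg over 18330 genes at a threshold of 0.05. By this test 42 of the 52 genes rose in resistant cells and 5 fell. Over all genes tested, 32.7% were called higher and 34.2% lower. The 5 that fell were TK1, TOP1, MCM10, GINS3 and ORC4, and the 5 that did not pass were MCM4, ORC5, DBF4, POLD2 and RFC1. The median log2 fold change of the 52 was 0.33, with a range of -0.79 to 1.28, and the median over all genes tested was 0.0043. PRIM1 and PRIM2 were the members that rose at least 2-fold, a size of rise that 8.96% of all genes tested had. In RNA from whole cultures, more cells in S phase and more RNA per cell cannot be told apart.

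**Figure D1:**
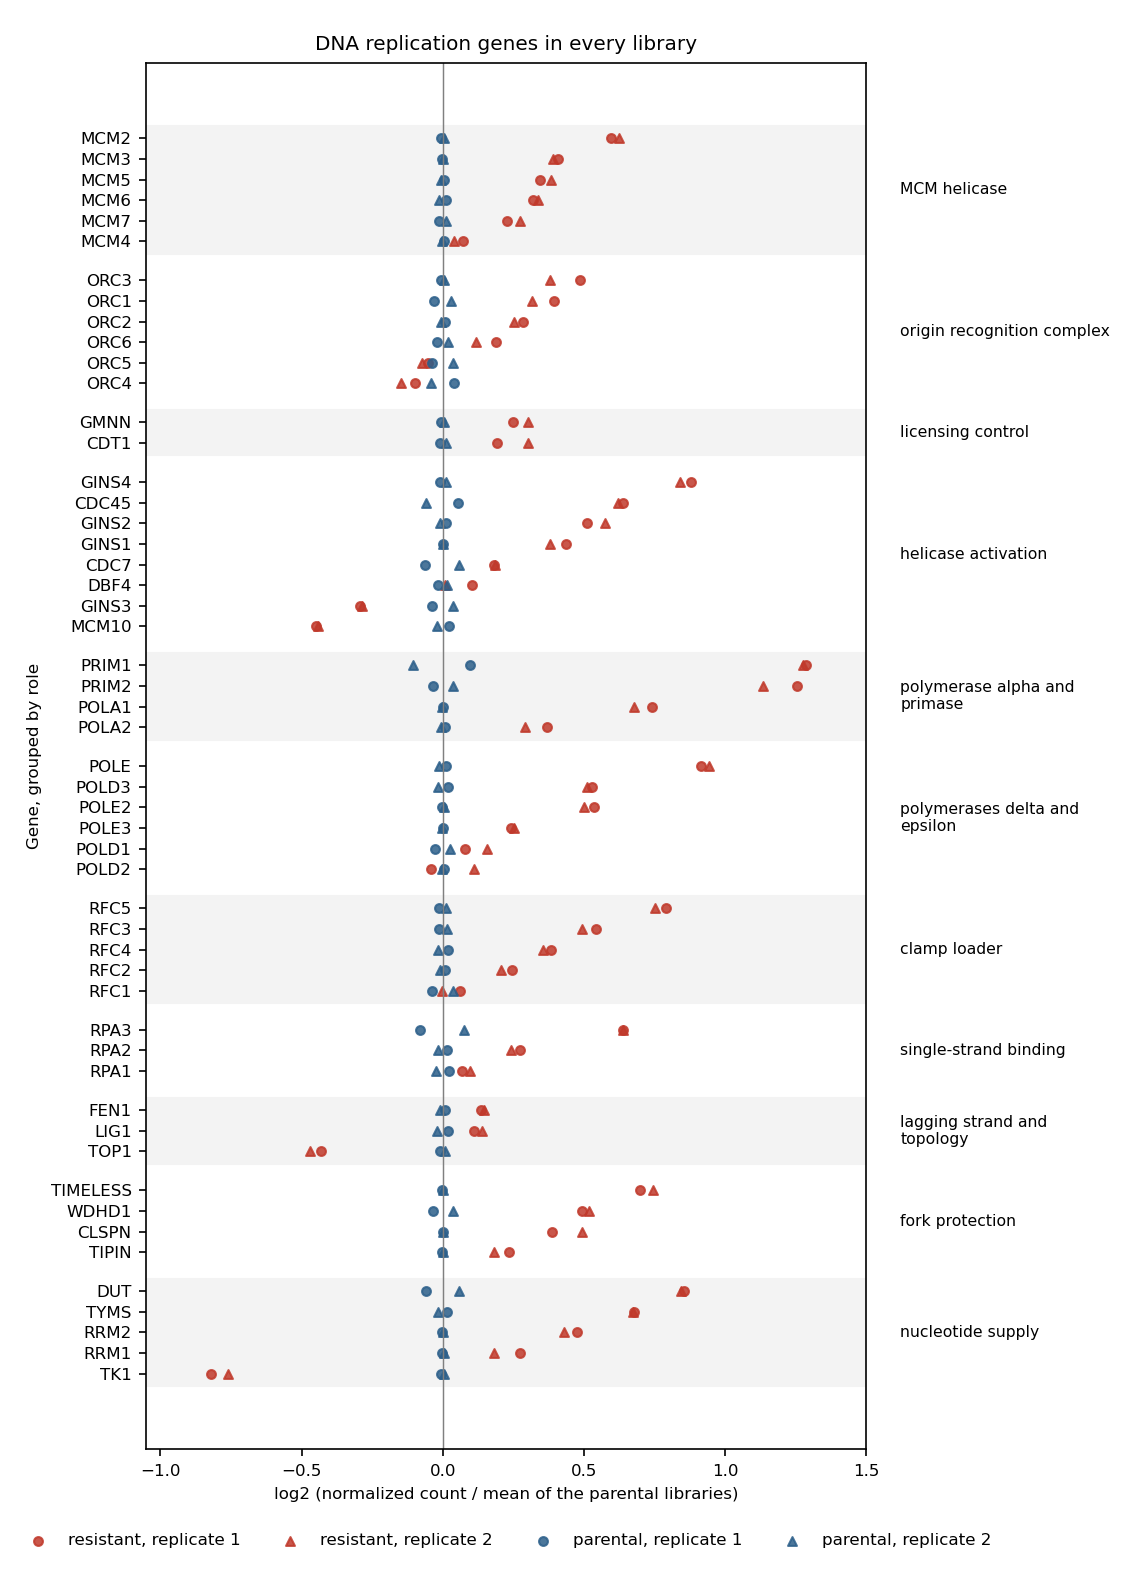
Normalized counts of the 52 replication genes in each library, as log2 of the ratio to the mean of the 2 parental libraries (horizontal axis), with genes grouped by role down the page. Red symbols are the resistant and blue symbols the parental libraries, with circles for replicate 1 and triangles for replicate 2. Most red pairs lie to the right of the blue pairs, PRIM1 and PRIM2 lie farthest right, and TK1, TOP1, MCM10, GINS3 and ORC4 lie to the left.

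Replicates lay close together, which makes small differences pass the test. The common dispersion between replicates was 0.000565, a coefficient of variation of 2.38%. Of the 42 higher and 5 lower replication genes, 14 had changed by less than 1.2-fold. Over all genes tested, 2983 of the 6001 higher and 6270 lower genes had done so. In 43 genes both resistant libraries were above both parental libraries, in 6 both were below, and in 3 the groups overlapped. Among all genes tested, both resistant libraries were above both parental ones in 41% and below them in 41.1%. When a difference of more than 1.2-fold was required, 25 of the 52 were called higher and 3 lower (TK1, MCM10 and TOP1), beside 18.4 and 18.6% of all genes tested. The same counts, 25 and 3, came from an edgeR fit of the recovered reads in which the dispersion was set to 0.01, a larger spread than the one measured here, beside 22.1 and 21.1% of all genes. With its own dispersions edgeR called 42 higher and 5 lower, beside 33.2 and 34.2% of all genes, and DESeq2 called 42 higher and 4 lower, beside 27.1 and 29.6%.

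The libraries held 58861281 and 67270948 recovered reads in resistant and 67690557 and 65818879 in parental cells, and each of the 52 genes had at least 666 reads in every library. Of 13 skeletal muscle markers, 11 were in the table, and their summed level was 228877 and 234975 normalized counts in the resistant libraries, against 122885 and 122776 in the parental libraries. MYF5 and MYF6 were not listed. Markers of other cells were also read. Of 8 blood markers 3 were listed, with sums of 70.3 and 78.3 normalized counts in resistant and 59.0 and 65.6 in parental libraries, and PTPRC was not listed. All 7 epithelial markers were listed, nearly all of their sum being KRT18 and KRT8, at 14779 and 14964 in resistant and 4858 and 4837 in parental libraries. Of 5 endothelial markers only TEK was listed, at 1729 and 1690 in resistant and 188 and 209.8 in parental libraries, and PECAM1, CDH5, VWF and KDR were not. The part of these shifts in the results for replication genes was not tested.

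Promoter sequences were examined because so many of the genes moved together and E2F targets carry a recognisable short sequence near the start of transcription. RefSeq windows on GRCh38.p14, from 250 bases before to 50 bases after the annotated start, were at hand for 46 of the 52 genes. MCM4, MCM5, GINS4, POLD3, RPA2 and RPA3 had no entry. The E2F motif was searched on both strands as 4 words that may overlap each other. The first word was TTCCCGC. The second word was TTCGCGC. The third word was TTGCCGC. The last word was TTGGCGC. The 250 bases before the start are given for 4 genes on the minus strand: PRIM1 (chr12:56752324-56752573), which had the highest fold change of the 52, POLE (chr12:132687343-132687592) and MCM6 (chr2:135876444-135876693), which rose and hold several matches, and TK1 (chr17:78187205-78187454), which had the lowest fold change. Capitals mark the E2F words.
PRIM1: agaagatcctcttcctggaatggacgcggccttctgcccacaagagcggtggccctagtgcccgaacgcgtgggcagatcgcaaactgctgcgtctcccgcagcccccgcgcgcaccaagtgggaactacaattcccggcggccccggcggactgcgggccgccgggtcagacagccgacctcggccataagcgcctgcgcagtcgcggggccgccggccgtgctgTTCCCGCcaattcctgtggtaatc
POLE: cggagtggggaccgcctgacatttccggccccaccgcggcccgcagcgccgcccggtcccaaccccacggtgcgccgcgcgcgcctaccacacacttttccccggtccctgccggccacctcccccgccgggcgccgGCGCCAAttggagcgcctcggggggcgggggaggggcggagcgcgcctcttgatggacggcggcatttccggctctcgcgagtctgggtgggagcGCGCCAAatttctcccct
MCM6: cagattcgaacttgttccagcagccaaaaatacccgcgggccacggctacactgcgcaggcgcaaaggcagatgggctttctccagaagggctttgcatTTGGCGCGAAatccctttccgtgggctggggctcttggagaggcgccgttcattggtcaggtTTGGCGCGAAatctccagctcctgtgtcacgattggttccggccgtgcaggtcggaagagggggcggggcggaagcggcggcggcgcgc
TK1: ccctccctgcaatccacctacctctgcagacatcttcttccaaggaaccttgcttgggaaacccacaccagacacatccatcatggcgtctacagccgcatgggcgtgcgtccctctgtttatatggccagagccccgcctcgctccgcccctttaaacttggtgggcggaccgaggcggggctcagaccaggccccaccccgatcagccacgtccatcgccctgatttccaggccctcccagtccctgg

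The PRIM1 window held 1 match, close to the start, and the POLE window 2. MCM6 held 4 matches in 2 stretches, since the words overlap there on opposite strands. The TK1 window held none. Of the 37 genes that rose and have a window, 26 (70.3%) held at least 1 of these words. Of the 9 that fell or did not pass, 2 (22.2%) did, namely GINS3 and RFC1. Over all 46 windows of the list, 28 (60.9%) held a word. Among the 11481 genes of the expression table with a window the share was 19.9%, and among all 27305 RefSeq genes with a window it was 13.1%. Since many of the 46 are known E2F targets, a higher share than in the table comes with the list. A link between the words and the rise was not tested. In the 46 windows of replication genes there were 46 matches, with overlapping words counted separately. Of these, 33 (71.7%) began between 60 bases before and 40 bases after the start, beside 35.9% of the 2684 matches in genes of the table. Those bounds lie just outside the outermost of the 33, at -55 in RFC3 and 37 in RFC1, so the share is a description only. The CCAAT box was present in 20 of the 37 windows (54.1%) and 3 of the 9 (33.3%), with 36.0% of table genes. The E-box CACGTG was present in 6 of the 37 (16.2%) and 0 of the 9, with 9.82% of table genes. The other 11 genes that rose held no E2F word in their windows. They were PRIM2, the gene with the second largest rise, DUT, CDC45, RRM2, GMNN, ORC2, POLE3, TIPIN, ORC6, FEN1 and POLD1. A match describes letters in the window and not a bound site.

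**Figure D2:**
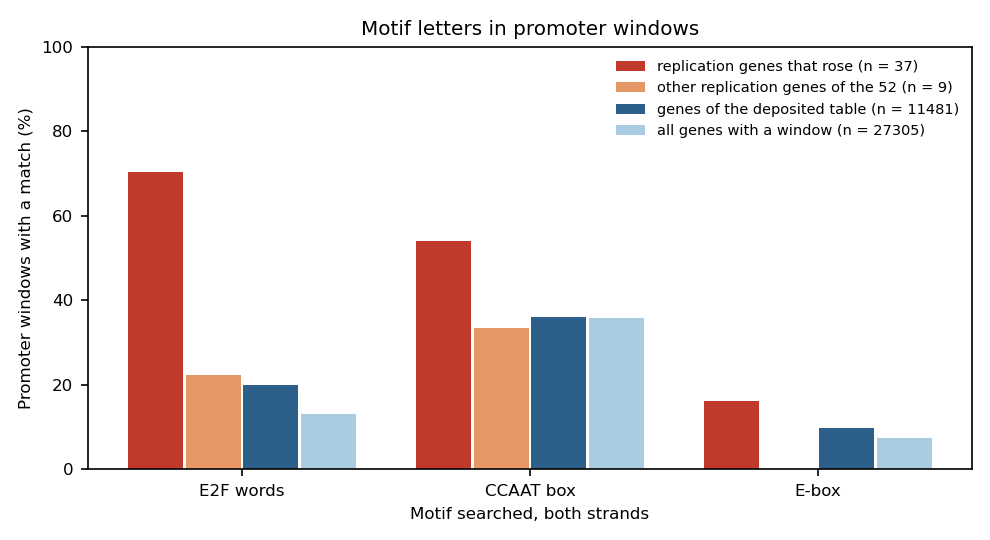
Share of promoter windows (vertical axis, percent) that hold at least 1 match on either strand, for E2F words, the CCAAT box and the E-box CACGTG. Red bars are the 37 replication genes that rose, orange bars the 9 other replication genes with a window, dark blue bars 11481 genes of the expression table and light blue bars 27305 RefSeq genes. E2F words were found in 70.3% of the red windows and 22.2% of the orange ones, and the orange E-box bar is at 0.

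The MCM helicase is a ring of MCM2 to MCM7 that unwinds the parental strands. Of its 6 subunit genes 5 rose and MCM4 did not pass the test, with a median log2 fold change of 0.35. MCM2 (chromosome 3 from 127598223 to 127622436) had 20949 and 21361 normalized counts in the resistant libraries, against 13815 and 13907 in the parental libraries (log2 fold change 0.61, SE 0.03, limma adjusted p = 2.55e-16). MCM3 had 12191 and 12051 in resistant and 9182 and 9206 in parental libraries, a log2 fold change of 0.40 (SE 0.03). Both resistant libraries were above both parental libraries for these subunits. At the low end, MCM7 had 37940.1 and 39196 normalized counts in resistant and 32139 and 32710.3 in parental libraries (log2 fold change 0.25, SE 0.03). MCM4 had 17256 and 16883 in resistant and 16471 and 16403 in parental libraries (log2 fold change 0.05, SE 0.03, limma adjusted p = 0.102). The subunits of the ring thus differed in their fold changes, MCM5 (log2 fold change 0.36) and MCM6 (0.33) lying between these. AC023593.1, an antisense gene, covers 22.7% of the exonic bases of MCM2. No strand setting is stated for the counting, so reads of such pairs cannot be told apart.

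The ORC genes did not move as a block. ORC1, the subunit whose level is known to vary through the cell cycle in human cells, rose, as did ORC2, ORC3 and ORC6, while ORC4 fell and ORC5 did not pass. ORC3 had 4253 and 3959 normalized counts in resistant libraries, against 3027 and 3051 in parental libraries (log2 fold change 0.43, SE 0.04, limma adjusted p = 5.18e-10). ORC1 had 5296 and 5019 in resistant and 3941 and 4113 in parental libraries (log2 fold change 0.36, SE 0.04). In both the groups were well apart. ORC5 had 2926 and 2887 in resistant and 2956 and 3117 in parental libraries (log2 fold change -0.06, SE 0.04, limma adjusted p = 0.195). ORC4 had 2640.3 and 2547 in resistant and 2900.4 and 2746 in parental libraries (log2 fold change -0.12, SE 0.04, limma adjusted p = 0.016). The fall of ORC4 was small, and it did not pass in DESeq2 (adjusted p = 0.0628) or against 1.2-fold. Without parental replicate 1 the log2 fold change of ORC4 was -0.083. ORC2 and ORC6 stood at 0.27 and 0.15 on the log2 scale, and ORC6 at 0.13 without parental replicate 1.

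CDT1, which brings MCM to origins, and its inhibitor geminin rose by similar amounts. CDT1 had 4141 and 4464 normalized counts in resistant libraries, against 3598 and 3650.5 in parental libraries (log2 fold change 0.25, SE 0.04, limma adjusted p = 6.19e-06). GMNN had 3229 and 3343 in resistant and 2703 and 2726 in parental libraries (log2 fold change 0.28, SE 0.04, limma adjusted p = 1.40e-06). The ratio of CDT1 to GMNN counts was 1.28 and 1.34 in resistant libraries, against 1.33 and 1.34 in parental libraries, so the groups overlapped. Neither gene passed when a difference of more than 1.2-fold was required.

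Of the 8 genes that activate the loaded helicase, 5 were higher, 2 lower and DBF4 not past the threshold. Over all genes tested the shares were 32.7% higher and 34.2% lower. GINS4 had 4759 and 4638 normalized counts in resistant libraries, against 2567 and 2608 in parental libraries (log2 fold change 0.86, SE 0.04, limma adjusted p = 1.05e-16). CDC45 had 3340.4 and 3299 in resistant and 2229 and 2061 in parental libraries (log2 fold change 0.63, SE 0.04). GINS1 (log2 fold change 0.41) and GINS2 (0.54), which encode other subunits of the same complex, rose too. GINS3, the remaining GINS subunit gene, had 1535 and 1542 in resistant and 1833 and 1929 in parental libraries (log2 fold change -0.29, SE 0.05, limma adjusted p = 1.02e-05). The subunit genes of this 4-member complex therefore lay on both sides of 0. MCM10, a factor needed to start unwinding, had 2625 and 2643 in resistant and 3637 and 3534 in parental libraries (log2 fold change -0.44, SE 0.04, limma adjusted p = 2.18e-10). Its count relative to MCM2 was 0.125 and 0.124 in resistant libraries, against 0.263 and 0.254 in parental libraries, a ratio chosen after the values were seen. The 20 nearest tested genes of MCM10 in order of start position had a lower median still, and MCM10 stood 0.47 above it. Of the 2 genes of the activating kinase, CDC7 rose by 0.19 on the log2 scale, and by 0.13 without parental replicate 1. DBF4, its activating subunit, had 5539 and 5184 in resistant and 5097 and 5215 in parental libraries (log2 fold change 0.06, SE 0.04, limma adjusted p = 0.199). AC009630.2 and AC009118.2 cover 21.2 and 10.9% of the exonic bases of GINS4 and GINS3 on the opposite strand.

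Polymerase alpha and primase, the complex that starts every new strand, had the highest median of the 11 roles, at 0.95 on the log2 scale, and all 4 of its genes rose. PRIM1, the catalytic primase subunit (ENSG00000198056, chromosome 12 from 56731596 to 56752373), had 3221 and 3201 normalized counts in resistant libraries, against 1414 and 1229 in parental libraries (log2 fold change 1.28, SE 0.05, limma adjusted p = 1.50e-17). PRIM2, the large primase subunit on chromosome 6 from 57314805 to 57646849, had 2220.4 and 2044 in resistant and 909 and 954 in parental libraries (log2 fold change 1.19, SE 0.06, limma adjusted p = 1.42e-16). Both primase genes had more than 2-fold higher counts in each resistant library than in either parental library. POLA1, the polymerase subunit, had 5843 and 5584 in resistant and 3499 and 3487 in parental libraries (log2 fold change 0.71, SE 0.04). POLA2, the accessory subunit, had 3036 and 2879 in resistant and 2364 and 2340.2 in parental libraries (log2 fold change 0.33, SE 0.04). The ratio of PRIM1 to POLA1 counts was 0.551 and 0.573 in resistant libraries, against 0.404 and 0.352 in parental libraries, so that within the complex the primase subunit differed more than the polymerase subunit. AP000944.2 and AC117378.1 share 35.1 and 14.9% of the exonic bases of POLA2 and PRIM1 on the same strand, which makes their counts uncertain.

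Of the 6 genes of the main replicative polymerases 5 rose, and POLE had the largest measured difference. POLE, the catalytic subunit of the leading-strand polymerase epsilon (chromosome 12 from 132623753 to 132687365), had 11596 and 11822 normalized counts in resistant libraries, against 6205 and 6093 in parental libraries (log2 fold change 0.93, SE 0.03, limma adjusted p = 2.70e-19). POLD3, an accessory subunit of the lagging-strand polymerase delta, had 2339 and 2314 in resistant and 1642 and 1603 in parental libraries (log2 fold change 0.52, SE 0.05). The catalytic subunit of polymerase delta differed much less. POLD1 had 8477 and 8946 in resistant and 7883 and 8166 in parental libraries (log2 fold change 0.12, SE 0.03, limma adjusted p = 0.00383). Without parental replicate 1 the log2 fold change of POLD1 was 0.093. POLD2 had 11228 and 12464 in resistant and 11572 and 11520.1 in parental libraries (log2 fold change 0.04, SE 0.04, limma adjusted p = 0.415). Its resistant libraries lay on either side of the parental ones. POLE2 and POLE3, accessory subunits of polymerase epsilon, rose by 0.52 and 0.25 on the log2 scale.

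The clamp loader (replication factor C) places the sliding clamp that keeps polymerases on DNA. Of its 5 subunit genes 4 rose, with a median log2 fold change of 0.37. RFC5 had 2972 and 2896 normalized counts in resistant libraries, against 1705 and 1735 in parental libraries (log2 fold change 0.77, SE 0.04, limma adjusted p = 1.71e-14). RFC3 had 3193 and 3088 in resistant and 2172 and 2214 in parental libraries (log2 fold change 0.52, SE 0.04). The large subunit did not follow. RFC2 had 7109 and 6920.2 in resistant and 6041 and 5964 in parental libraries (log2 fold change 0.22, SE 0.03). RFC1, the large subunit, had 4710.3 and 4501 in resistant and 4398 and 4628 in parental libraries (log2 fold change 0.03, SE 0.04, limma adjusted p = 0.518), and its groups overlapped. RFC4 rose by 0.37 on the log2 scale.

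Replication protein A coats single-stranded DNA at the fork, and its 3 subunit genes rose by unequal amounts. RPA3, the smallest subunit, had 2583 and 2586 normalized counts in resistant libraries, against 1570.1 and 1752 in parental libraries (log2 fold change 0.64, SE 0.05, limma adjusted p = 1.13e-11). RPA2 had 8019 and 7848 in resistant and 6718 and 6564 in parental libraries (log2 fold change 0.26, SE 0.03). RPA1, the large subunit, had 13610.5 and 13902 in resistant and 13193 and 12793 in parental libraries (log2 fold change 0.08, SE 0.03, limma adjusted p = 0.0198). The difference in RPA1 was the smallest among the called replication genes. Its log2 fold change was 0.10 without parental replicate 1 and 0.060 without parental replicate 2.

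The genes of enzymes that finish the lagging strand rose by less than 1.2-fold, while the gene of topoisomerase I, which relaxes the supercoils ahead of the fork, fell. FEN1, the nuclease that removes primer flaps, had 6258 and 6305 normalized counts in resistant libraries, against 5736 and 5669.6 in parental libraries (log2 fold change 0.14, SE 0.03). LIG1, the ligase that seals the fragments, had 4612 and 4707 in resistant and 4325 and 4215 in parental libraries (log2 fold change 0.13, SE 0.04). Without parental replicate 2 the log2 fold change of LIG1 was 0.11. TOP1 had 25398 and 24730.4 in resistant and 34008 and 34428 in parental libraries (log2 fold change -0.45, SE 0.03, limma adjusted p = 7.27e-14). Both resistant libraries were well below both parental libraries for TOP1.

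All 4 genes of fork protection and the replisome scaffold rose, with a median log2 fold change of 0.47. TIMELESS, which with TIPIN steadies the fork and helps signal its stalling, had 9449 and 9736 normalized counts in resistant libraries, against 5809.6 and 5822 in parental libraries (log2 fold change 0.72, SE 0.03, limma adjusted p = 1.25e-16). WDHD1, which links polymerase alpha to the helicase, had 5040.4 and 5129 in resistant and 3490.2 and 3664 in parental libraries (log2 fold change 0.51, SE 0.04). CLSPN, the mediator of the ATR to CHK1 signal, had 4899.7 and 5266 in resistant and 3743 and 3744 in parental libraries (log2 fold change 0.44, SE 0.04). The partner of TIMELESS differed less. TIPIN had 2371 and 2285 in resistant and 2010.0 and 2016 in parental libraries (log2 fold change 0.21, SE 0.05). RPL9P25, a processed pseudogene, shares 21.0% of the exonic bases of TIPIN on the same strand.

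The genes of nucleotide supply held both a large rise and the largest fall of the 52. DUT, the dUTPase that keeps uracil out of DNA, had 3894 and 3863 normalized counts in resistant libraries, against 2063 and 2239.8 in parental libraries (log2 fold change 0.85, SE 0.04, limma adjusted p = 1.71e-15). TYMS, thymidylate synthase, which makes dTMP from dUMP, had 14679.6 and 14668 in resistant and 9279 and 9086 in parental libraries (log2 fold change 0.68, SE 0.03, limma adjusted p = 8.54e-17). TK1, whose enzyme makes dTMP by salvage of thymidine, fell on the measured scale. This cytosolic thymidine kinase gene (ENSG00000167900, chromosome 17 from 78174075 to 78187233), had 8663 and 9041 in resistant and 15257 and 15360.5 in parental libraries (log2 fold change -0.79, SE 0.03, limma adjusted p = 5.40e-18). Its 20 nearest tested genes in order of start position had a lower median still. TK1 stood 0.42 above them, and 0.62 above the median of 60 neighbours. The ratio of TK1 to TYMS counts was 0.590 and 0.616 in resistant libraries, against 1.64 and 1.69 in parental libraries, a pair chosen after the values were seen. Of ribonucleotide reductase, RRM1, the large subunit, had 14552 and 13672 in resistant and 12028 and 12075 in parental libraries (log2 fold change 0.23, SE 0.03). RRM2, its small subunit, rose by 0.45 on the log2 scale, and the ratio of RRM2 to RRM1 counts was 2.25 and 2.32 in resistant libraries, against 1.96 and 1.95 in parental libraries. ENOSF1 covers 39.1% of the exonic bases of TYMS from the opposite strand, and its own counts were 1441 and 1479 in resistant libraries, against 1574 and 1596 in parental libraries, the opposite direction to TYMS. DUT has 8 named pseudogenes, RRM2 and RPA2 have 3 each and TYMS has 2, so reads of these genes may have been split.

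The position of a gene on its chromosome went along with its fold change. For each gene the median log2 fold change of its 20 nearest tested genes was taken as the level of its neighbourhood. Nearest means by order of start position and not by distance, with an equal number on each side and a shift at chromosome ends. Neighbour medians of the 52 genes ran from -1.21 to 0.50, and the gene's own log2 fold change followed them with a Pearson correlation of 0.73 (Spearman 0.57) across the 52 genes, against a Pearson correlation of 0.32 across all placed genes. Genes that lie near each other share neighbours, so these are descriptions. TK1 and MCM10 had the lowest neighbour medians, the next being -0.47 for LIG1, and such end points weigh on a Pearson value. No Spearman value was computed for all placed genes. The falls of TK1 and MCM10 lay in neighbourhoods that were lower still, at -1.21 around TK1 on chromosome 17 and -0.91 around MCM10 on chromosome 10. Set against their neighbours both were higher, by 0.42 for TK1 and 0.47 for MCM10 on the log2 scale. ORC4 stood 0.26 above its 20 neighbours, and at -0.0018 when 60 neighbours were used, a setting chosen after seeing the data. TOP1 and GINS3 were lower than theirs, at -0.12 and -0.22. The 4 members on chromosome 12, PRIM1, POLE, RFC5 and TIMELESS, all rose, and their neighbour medians were 0.24 to 0.50. All 4 members on each of chromosomes 1, 6 and 11 rose as well. Their neighbour medians lay on both sides of 0, at -0.048 to 0.18, -0.035 to 0.38 and -0.17 to 0.15. PRIM1 stood 0.85 above its neighbours, POLE 0.47, RFC5 0.53 and TIMELESS 0.22. Among the polymerase delta and epsilon genes POLD3, at 0.67, then had a higher value than POLE. TYMS (0.32), WDHD1 (0.24) and RFC3 (0.16) also stood above their neighbours by less than their measured fold change. The part of chromosomal position in the results was not tested.

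Against their neighbours the 52 replication genes were more uniform as a set, though not within every role. With the neighbour median subtracted, 43 of the 52 were called higher and 2 lower, beside 31.5 and 33.2% of the 17762 genes so tested, and the p-values take the neighbour median as known. With 60 neighbours the counts were 45 and 2, beside 31.2 and 32.8%. The median was 0.36, the range -0.22 to 1.02 and the SD across the 52 genes 0.27, against an SD of 0.38 for the measured fold changes. Over all genes the SD was 0.89 with the neighbour median subtracted, against 0.94 as measured. No SD was computed without TK1 and MCM10, which had the lowest neighbour medians. Of the 52, 48 were above their neighbour median, as were 49.9% of all placed genes. DBF4, FEN1, GINS3 and TOP1 were the 4 below. RPA3 had the highest value, 1.02, followed by PRIM1, DUT (0.83) and MCM2 (0.82). MCM4 (0.28), RFC1 (0.34) and POLD2 (0.21), which did not pass on the measured scale, passed here. ORC2, GMNN, CDC7, FEN1 and TIPIN, which rose by 0.14 to 0.28, lay in neighbourhoods at 0.15 to 0.23 and did not pass here.

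**Figure D3:**
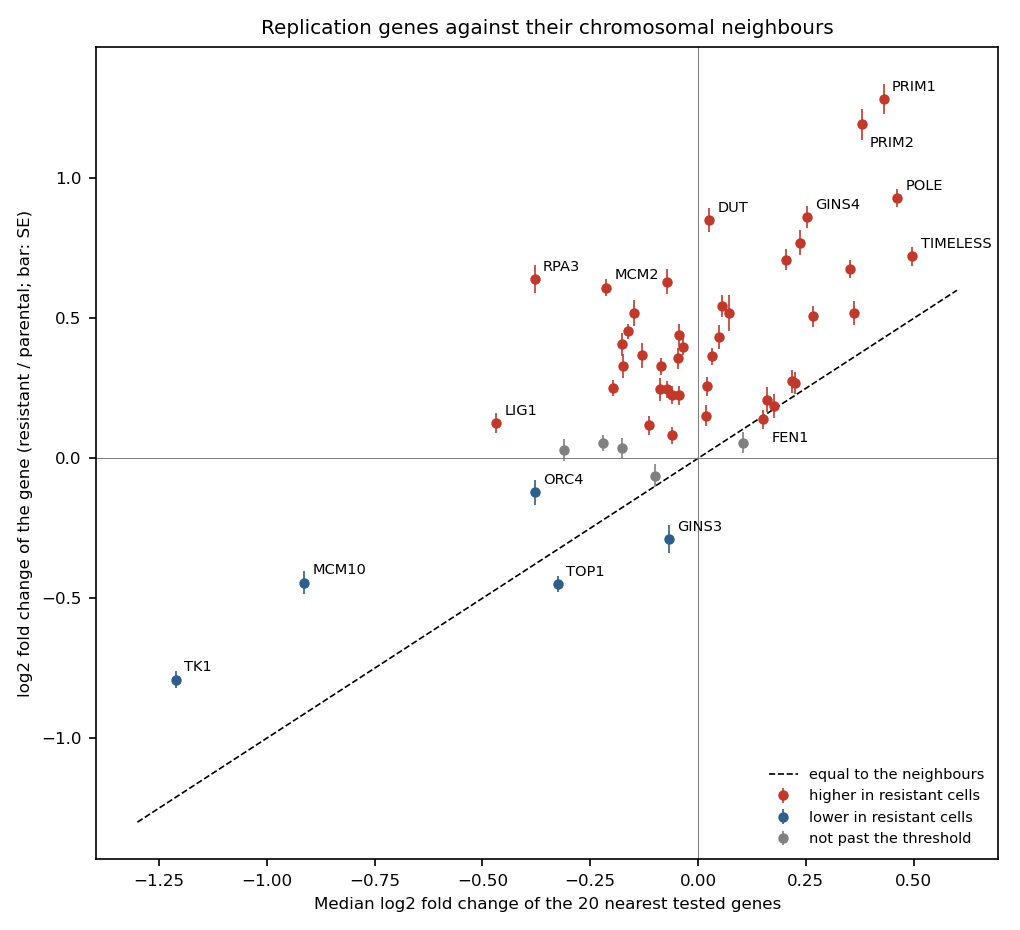
Log2 fold change of each replication gene (vertical axis, resistant over parental, bars showing the SE from limma) against the median log2 fold change of its 20 nearest tested genes (horizontal axis). Nearest is by order of start position. Red points rose, blue points fell, grey points did not pass the threshold, and the dashed line marks equality with the neighbours. Of the 52 points 48 lie above the line, including TK1 and MCM10, whose neighbour medians were -1.21 and -0.91, and TOP1 and GINS3 lie below it.

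Levels also differed between the subunit genes of a complex. On normalized counts per kilobase of merged exons, the MCM genes ranged in level from 1467 (MCM5) to 8793 (MCM7) in resistant cells, and from 1140 (MCM5) to 7393 (MCM7) in parental cells, so the highest was 5.99 times the lowest in resistant and 6.48 times in parental cells. The level of the 4 polymerase alpha and primase genes summed to 3193 per kilobase in resistant cells, against 1704 in parental cells. PRIM2 had the lowest level of the 4 in both groups. In resistant cells PRIM1 was at 1318 ± 5.79 per kilobase (SD, n = 2) and POLA1 at 902 ± 28.9 (SD, n = 2). In parental cells PRIM1 was at 542 ± 53.9 and POLA1 at 551 ± 1.28 (SD, n = 2 each), which did not differ beyond their spread. Among the nucleotide genes RRM2 was at 6057 ± 139, TYMS at 5941 ± 3.33 and TK1 at 4757 ± 144 per kilobase in resistant cells. The first 2 of these did not differ beyond their spread, and TK1 was below both. In parental cells TK1 was first, at 8226 ± 39.2 per kilobase, with RRM2 at 4424 ± 7.62 and TYMS at 3718 ± 55.3 (SD, n = 2). Coverage along the gene and the exons in use can move these levels. So can overlapping genes, since AC007240.1 shares 20.2% of the exonic bases of RRM2 on the same strand. The SDs cover the scatter between replicates and not the error of comparing different genes.

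**Figure D4:**
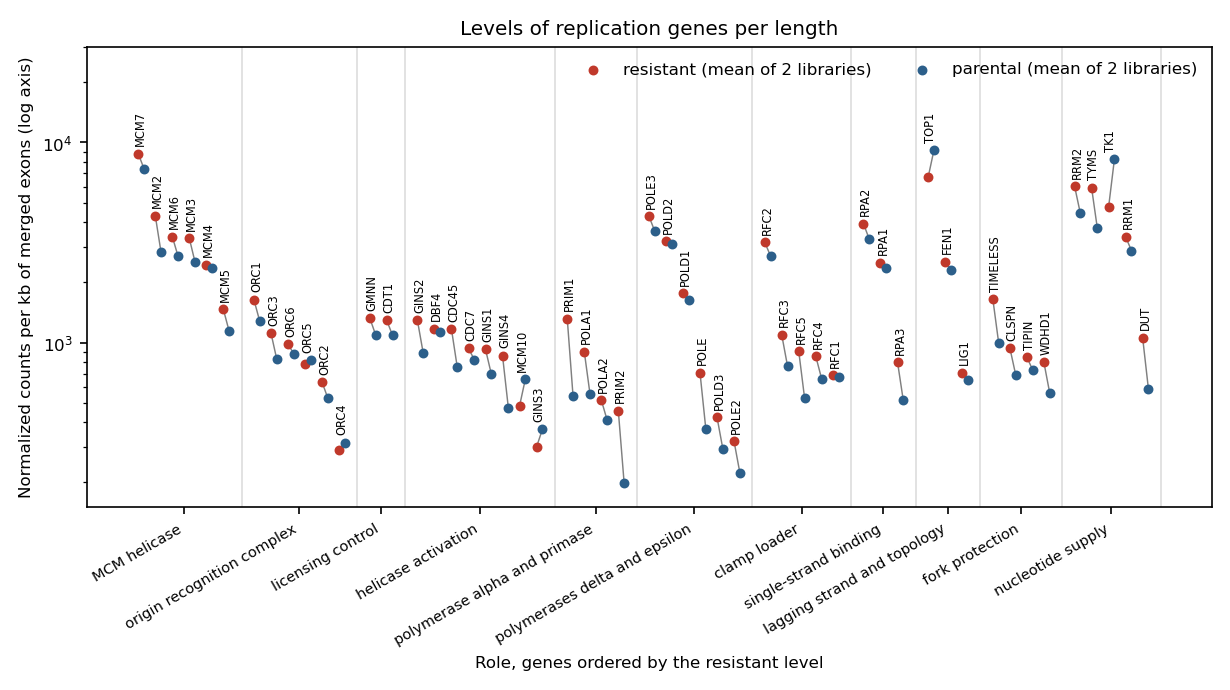
Mean level of each replication gene in normalized counts per kilobase of merged exons (vertical log axis), by role along the horizontal axis and ordered within a role by the resistant level. Red points are the means of the 2 resistant libraries and blue points those of the 2 parental libraries, joined by a line. The red point is the higher for most genes, and TK1 is first of the nucleotide genes in parental cells at 8226 and lies below RRM2 and TYMS in resistant cells at 4757.

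Genes of other replication and cell cycle lists rose more often than they fell. The shares over all genes tested were 32.7% higher and 34.2% lower. Of 41 other replication genes 40 were tested. The median log2 fold change was 0.17, and 26 genes rose while 8 fell. On the log2 scale TOP2A, the topoisomerase that untangles sister chromatids, rose by 1.60, the chromatin remodeller HELLS by 1.58 and the licensing factor CDC6 by 1.26. Above their neighbours these genes stood by 0.73, 1.07 and 0.45, and POLE4 did not pass there (-0.05). POLE4 (-0.32), RIF1 (-0.24) and ASF1A (-0.24) had the lowest values of that list, and none of its 8 falls passed against 1.2-fold by limma, at an unadjusted or an adjusted p. With edgeR at a dispersion of 0.01 the count was also 0, and 1 fall had an unadjusted p under 0.05. Of 34 other nucleotide genes, 18 rose, 8 fell and the median was 0.11. UNG, the uracil glycosylase, rose by 0.83 on the log2 scale, and PRPS2, which makes phosphoribosyl pyrophosphate, by 0.78. RRM2B (-0.43), the p53-induced small subunit of ribonucleotide reductase, DCTD (-0.40) and SAMHD1 (-0.33), which degrades dNTPs, fell. Against its neighbours SAMHD1 was called higher, at 0.14, and RRM2B was at -0.19.

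Of 31 genes of G1/S control, 19 rose, 9 fell and the median was 0.19, beside 32.7% higher and 34.2% lower over all genes tested. On the log2 scale the D-type cyclin CCND2 rose by 2.10, the activator E2F2 by 1.42 and SKP2, which marks the inhibitor p27 for degradation, by 1.07. TFDP1 (-0.96), the dimer partner of E2F proteins, CDKN1C (-0.57) and E2F8 (-0.45), a repressor of E2F targets, fell. The neighbours of TFDP1 were at -0.97, and it did not pass against them (0.01). Of 40 mitosis genes, 32 rose, 5 fell and the median was 0.41. MKI67 rose by 1.34 and BUB3 by 1.16 on the log2 scale, and CDK1 had 13391 and 11965 normalized counts in resistant libraries, against 5461 and 5565 in parental libraries, while BIRC5 (-0.98), CDC25B (-0.47) and UBE2C (-0.32) fell. BIRC5 lies in the same neighbourhood as TK1, with a neighbour median of -1.21. Against their neighbours BIRC5 (0.23) and CDC25B (0.26) were called higher and UBE2C (0.03) did not pass, while CDK1 (0.66) and BUB3 (0.62) stayed higher by less. With neighbour medians subtracted, 31.5% of all genes so tested were called higher and 33.2% lower. The counts higher and lower were then 33 and 3 of the 40 other replication genes and 20 and 10 of the 34 other nucleotide genes. They were 18 and 7 of the 31 G1/S genes and 34 and 4 of the 40 mitosis genes. The corresponding medians were 0.27, 0.11, 0.11 and 0.30, beside 0.36 for the 52 genes.

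**Figure D5:**
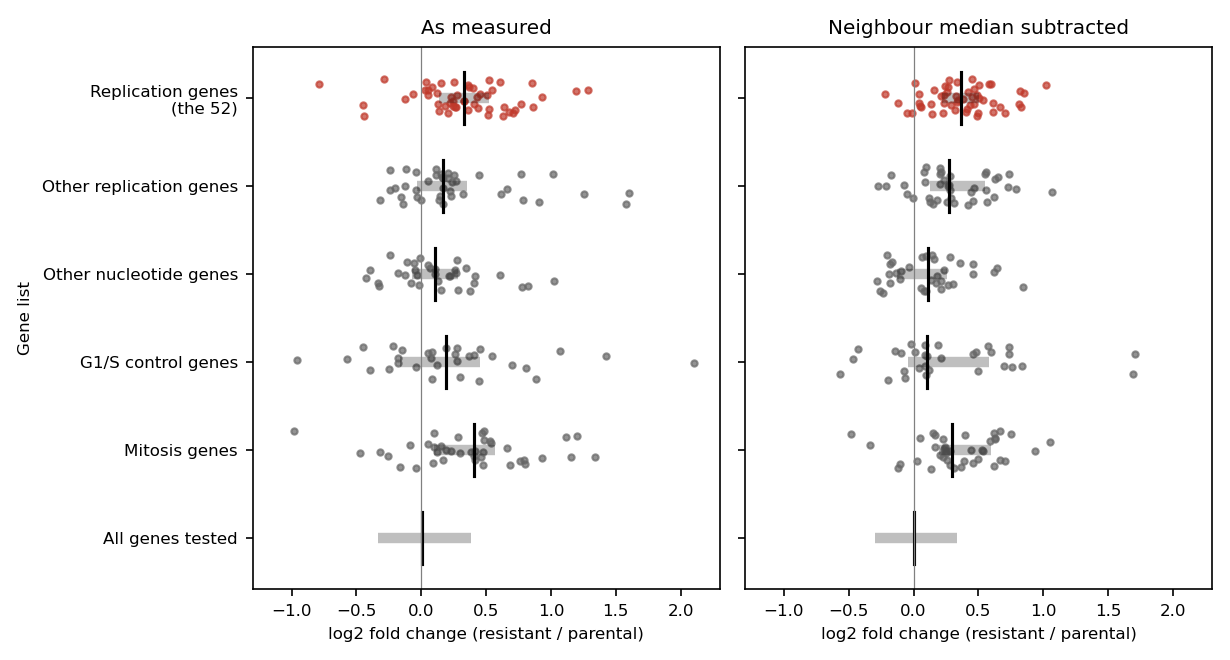
Log2 fold changes (horizontal axis, resistant over parental) of the 52 replication genes in red and of 4 other gene lists in grey, as measured (left) and with the median of the 20 nearest tested genes subtracted (right). Nearest is by order of start position. Points are genes, black bars are medians and thick grey bars span the interquartile range, and for all genes tested the points are left out. The median of the 52 genes is 0.33 on the left and 0.36 on the right, and their spread is narrower on the right.

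In the authors' deposited table, whose p-values come from their own analysis, 42 of the 52 genes were called higher and 4 lower at an adjusted p of 0.05, beside 27 and 29.6% of all genes. The 46 genes called there were called with the same sign by limma, and the log2 fold changes of the deposited table and of limma differed by at most 0.0034. ORC4 was the gene on which the calls differed, with an adjusted p of 0.0625 in the authors' deposited table.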

How the data were processed

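Poly(A)-selected RNA of 4 libraries was measured, 2 resistant and 2 parental, grouped by sample title. The submitters' processing notes name STAR 2.5.2b, featureCounts of Subread 1.5.2, bcl2fastq 2.17 and DESeq2, with GRCh38 as the build. Neither the annotation nor the strandedness used for counting is stated there. The deposited table holds, per the file headers, a signal of normalized counts for each library, with log2 fold changes, p-values and adjusted p-values that the authors computed. In each library 100% of the values were whole multiples of a single step within 0.01. The authors had therefore divided read counts by size factors, found to be 0.924 and 1.05 (resistant) and 1.03 and 1.01 (parental). No gene has a mean under 9.98, so low expression is not represented.

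Since the values are normalized, the design's form for such values was used. The 18330 genes that reached 10 in 2 or more libraries were fitted with limma 3.58.1 (lmFit, eBayes with trend) on log2(value + 1), with group alone. Fold changes on this scale understate those of low genes. edgeR 4.0.16 on the recovered reads called 6086 genes higher and 6283 lower, and DESeq2 1.42.0 was a further alternative (R 4.3.3). All 52 genes and 96.9% of the table were placed with GENCODE 29 on GRCh38. Same-numbered replicates did not deviate together (correlation -0.030 over 18330 genes). With 2 libraries per group, this cannot tell whether libraries of the same number were handled together. Replicates of a group differed by more than sampling noise (chi-square per gene 4.04 resistant, 1.61 parental). Figures were drawn with matplotlib 3.10.9, and fits were tested on simulated data.

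The 52 genes and the other lists were chosen with earlier results of these data known. All 52 may be named, with full values for the 2 highest and 2 lowest of each role with at least 4 genes and for every gene of smaller roles. Of other lists, up to 3 called genes with the largest and 3 with the smallest fold change were named, if the higher group averaged 100 or more. A gene that this rule takes is not reported here. Ratios were chosen after the values were seen.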

Additional observations from a re-analysis of the deposited data

How the results depend on the processing

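Of 15 alternatives, pseudocounts of 0.5 and 5, no filter, TMM scaling, edgeR on the recovered reads and the replicate block changed no call of the 52 genes. The block on replicate number kept 42 higher and 5 lower, with 5926 and 6218 over all genes, 26 and 8 for other replication, 17 and 8 for other nucleotide, 17 and 9 for G1/S and 32 and 5 for mitosis genes, but the numbers share nothing that the labels state. DESeq2 lost ORC4. In 26 of the 52 genes direction and call held in all 15 alternatives, and in 29 they held in the 13 that keep the measured fold change. The 29 include ORC5, which held only in that it did not pass in any of the 13. Tests against 1.2-fold and with edgeR's dispersion at 0.01 each gave, higher and lower, 25 and 3 of the 52, 10 and 0 of the other replication, 8 and 2 of the other nucleotide and 11 and 4 of the G1/S genes, with 2 lower mitosis genes. Of all genes, 3380 were higher and 3414 lower against 1.2-fold, and 3882 were lower at that dispersion. Leaving out each library in turn left 1 library in a group, so those fits took their spread from the other group alone. The resistant pair was the noisier (chi-square per gene 4.04, against 1.61 for the parental pair). Calls of those fits are therefore not comparable with the main fit, and the counts of 26 and 29 above include them. Their median for the 52 was 0.31 to 0.33 on the log2 scale. POLD2 ranged from -0.040 (without resistant replicate 2) to 0.11, and RFC1 from -0.0072 (without parental replicate 1) to 0.066, with -0.0032 without resistant replicate 1. Subtracting the median of 20 neighbours moved the median of the 52 to 0.36, left 2 of them lower and 3 lower other replication genes, and reversed MCM10 (0.47), ORC4 (0.26), ORC5 (0.038), DBF4 (-0.048), FEN1 (-0.012) and TK1 (0.42). With 60 neighbours, chosen after seeing the data, 45 of the 52 were higher and 2 lower, beside 31.2 and 32.8% of all genes, 3 other replication and 2 mitosis genes were lower, the median was 0.39, and MCM10 (0.41), ORC2 (-0.013), ORC5 (0.078), CDC7 (-0.036) and TK1 (0.62) reversed. The cause was not tested, beyond the construction of the neighbour settings, in which a gene turns where its neighbours moved further. Depth did not limit the 52 genes, each with at least 666 reads per library, while 2 libraries per group limit what the p-values cover.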
